A study of Mus musculus with 8 samples.

Results

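The cytosolic ribosomal protein genes are the protein-coding genes with a symbol of Rpl or Rps and digits, with an optional a, l, x or y at the end, plus Rpsa, Rplp0, Rplp1 and Rplp2. The rule found 80 genes among the 55487 genes of the deposited count table, 31 of the small subunit and 49 of the large subunit. Rps4l, Rpl32l and Rpl6l have fitting symbols but are annotated as pseudogenes and were left out. The RNA came from the hypothalamus of C57BL/6J mice: 4 had spent 2 hours in a chamber at 7% oxygen (hypoxia), and 4 had stayed in normal air, given as 21% oxygen (normoxia). The labels name no allele, agent or pooling in either group, and an age is not given in the sources used here.

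Ribosomal proteins and ribosomal RNA build the small subunit, which reads the mRNA, and the large subunit, which joins amino acids. The mRNAs of these proteins are abundant in most tissues, and many begin with a short run of pyrimidines, the terminal oligopyrimidine (TOP) tract. Through this tract the mTOR kinase pathway sets how strongly the mRNAs are translated, a control that counts of mRNA do not measure. Mammalian genomes also hold many pseudogenes copied from these mRNAs, so reads of a gene and of its copies can be hard to tell apart.

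The windows given here show pyrimidine runs that lie near the annotated start, which need not be at the first base of the mRNA. The run of Rpl4 lies wholly before the annotated start, for example, and that of Rpl11 after it. RefSeq promoter entries of build GRCm38.p6 were found for 60 of the 80 genes, 72 entries in all. A run of at least 8 pyrimidines (C or T) on the coding strand within 25 bases of the annotated start was present in 33 of the 72 entries (45.8%), against 19.7% of all 32851 promoters in the table. The shorter string CTTTC in the same window, which can lie inside such a run, was present in 26.4% of the entries and in 6.75% of all promoters. The windows below run from 25 bases before the start to 25 bases from it on, 5′ to 3′ on the coding strand, with the pyrimidine runs in capitals. The first set shows genes with a run that the results below describe: those near the top of the small and large subunit comparisons, the gene for S6, a stalk gene, Rps27 with its widely shared sequence, and genes with few counts.
Rps15a, chr7:118116123-118116172, minus strand: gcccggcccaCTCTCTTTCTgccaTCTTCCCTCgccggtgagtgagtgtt
Rps6, chr4:86857343-86857392, minus strand: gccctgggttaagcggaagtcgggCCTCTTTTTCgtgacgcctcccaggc
Rps27, chr3:90213624-90213673, minus strand: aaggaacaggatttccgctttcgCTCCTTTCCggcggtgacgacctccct
Rps10, chr17:27635220-27635269, minus strand: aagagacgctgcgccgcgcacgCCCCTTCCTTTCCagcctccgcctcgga
Rpl4, chr9:64173362-64173411, plus strand: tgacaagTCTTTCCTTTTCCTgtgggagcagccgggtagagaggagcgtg
Rpl11, chr4:136053369-136053418, minus strand: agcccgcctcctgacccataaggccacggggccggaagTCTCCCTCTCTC
Rpl13a, chr7:45128721-45128770, minus strand: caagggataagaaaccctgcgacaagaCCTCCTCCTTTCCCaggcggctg
Rplp2, chr7:141447626-141447675, plus strand: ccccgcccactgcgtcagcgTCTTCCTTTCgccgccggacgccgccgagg
Such a run was found in 32 of the 60 genes with an entry, not all of them printed here, and the others had none in this window. Among genes described below, Rpl10, Rpl9, Rpl6, Rplp0, Rpsa, Rps15 and Rps4x had no run in the window examined. Whether genes with a run changed more than genes without one was not tested. Rpl24 and Rpl41, also without a run, are shown because their counts are described below.
Rpl24, chr16:55966250-55966299, plus strand: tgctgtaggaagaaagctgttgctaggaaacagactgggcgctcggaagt
Rpl41, chr10:128549144-128549193, minus strand: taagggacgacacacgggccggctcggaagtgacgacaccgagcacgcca

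Other short strings were searched on either strand of the whole 300 bases, from 250 before the start to 50 after it. CGGAAG, the core of sites bound by ETS-family factors, was present in 61.1% of the 72 entries and in 16.9% of all promoters. TCGCGAGA was present in 15.3% of the entries, against 0.995% of all promoters. AAGATGG was present in 15.3%, against 6.34% of all promoters. TATAA differed little, at 23.6% of the entries and 24.9% of all promoters. These are matches of letters and do not show that a factor bound there.

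Libraries held 16994473 (normoxia 3) to 21694383 (normoxia 4) counts. Replicates are biological, per the study's design text, and every p-value rests on how far these 8 libraries spread. All 14 markers listed for the hypothalamus passed 1 CPM (counts scaled by TMM to a common library total) in at least 1 library, and their summed level was 783 to 912 CPM in hypoxia and 467 to 938 CPM in normoxia. Normoxia 2 stood apart, with the lowest hypothalamus sum and with 897 CPM over 10 markers of cortex and hippocampus, which summed to 228 to 288 CPM in hypoxia and 194 to 282 CPM in the other normoxia libraries. Other libraries stood apart in other lists. Thalamus markers summed to 529 to 635 CPM in hypoxia, and to 863 CPM in normoxia 1 against 468 to 603 CPM in the other normoxia libraries. Oligodendrocyte markers summed to 9868 CPM in hypoxia 2 against 6670 to 6971 CPM in the other hypoxia libraries, and to 11503 CPM in normoxia 1 against 6461 to 8454 CPM in the other normoxia libraries. Red blood cell markers summed to 70.7 CPM in hypoxia 1, to 174 to 245 CPM in the other hypoxia libraries and to 173 to 277 CPM in normoxia. Pituitary markers summed to 42.5 CPM in hypoxia 4 and 80.3 CPM in normoxia 2, and to at most 9.73 CPM in the other libraries. Fewer cells of a type and less RNA per cell cannot be told apart in such bulk RNA.

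After 2 hours at 7% oxygen no ribosomal protein gene passed the test. Of the 80 genes, 76 passed the filter on low counts, all 31 of the small subunit and 45 of the large subunit. None had an adjusted p under 0.05 (edgeR quasi-likelihood test, Benjamini-Hochberg over 17047 genes), where 366 of the 17047 genes did (2.15%). DESeq2 and limma-voom also called 0 of the 76, where DESeq2 called 5.91% of all genes tested and limma-voom 2.44%. An unadjusted p under 0.05 was reached by 2 genes with edgeR (2.63% of the 76), against 19.3% of all genes tested, by 5 with DESeq2 (6.58%, against 18.2% of all genes) and by 4 with limma-voom (5.26%, against 19.6% of all genes). The lowest adjusted p was 0.144, for Rps20. Without normoxia 2, 16 of 77 genes that then passed the filter (20.8%) had an unadjusted p under 0.05, against 22.4% of all genes, and none had an adjusted p under 0.05, against 3.91% of all genes. Without hypoxia 4, 3 of 76 had an unadjusted p under 0.05, against 19.6% of all genes, and none an adjusted p under 0.05, against 4.01% of all genes.

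The intervals around these changes were narrow. The log2 fold changes of hypoxia over normoxia ran from -0.47 (Rps10) to 0.15 (Rps20), with a median of 0.03 over the 76 genes and of -0.01 over all genes tested. The median half-width of the 95% interval was 0.12 on the log2 scale, against 0.24 for all genes tested. For 73 of the 76 genes (96.1%) the whole interval lay within a 1.25-fold change in either direction, against 40.6% of all genes tested. The exceptions were Rpl41, Rps27l and Rps10, and of these only Rps10 also passed 1.5-fold. Within 1.1-fold lay the intervals of 14 genes (18.4%, against 4.01% of all). Most of the 76 genes have high counts: 72 averaged 30 CPM or more, as did 6951 of the 17047 genes tested. Intervals were not compared at matched levels, so their narrowness is not shown to be particular to these genes.

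**Figure D1:**
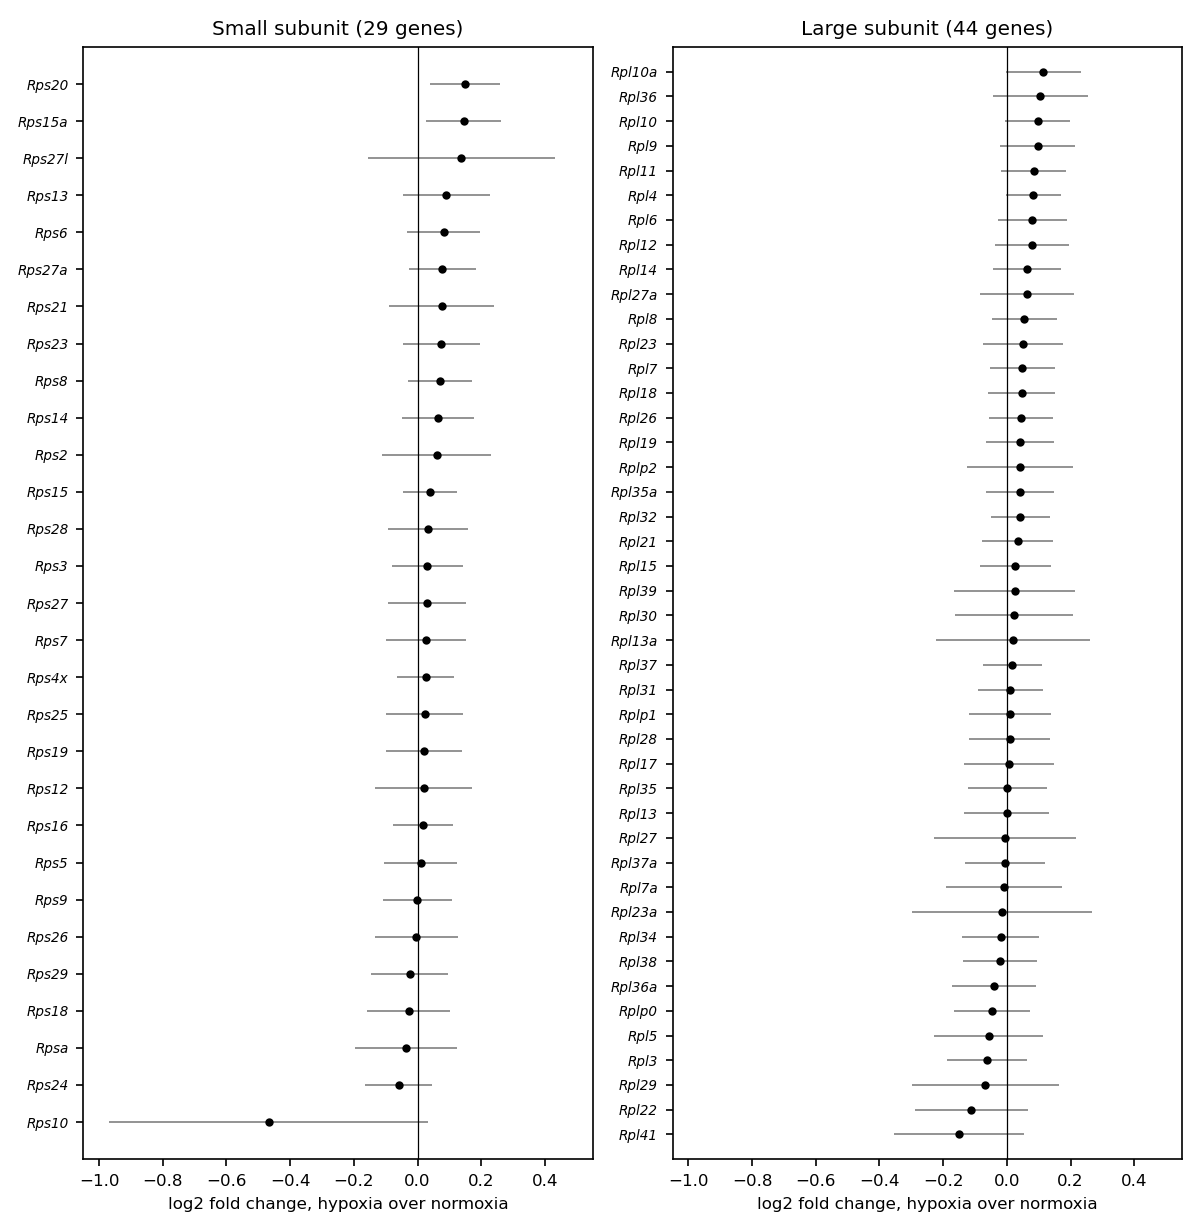
Log2 fold change of hypoxia over normoxia for 29 small subunit genes (left) and 44 large subunit genes (right) that passed the filter, with points for edgeR estimates and lines for 95% intervals. The points lie between -0.47 (Rps10) and 0.15 (Rps20), and only the intervals of Rps20 and Rps15a leave out 0.

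The log2 fold change was positive in 54 of the 76 genes (71.1%), against 48.2% of all genes tested, and this split moved with the scaling. With total counts in place of TMM, 39 of 76 were positive (51.3%, against 42.0% of all genes), with a median of 0.00 against -0.03 over all genes. With the size factors that DESeq2 uses, 58 of 76 were positive (76.3%, against 49.4% of all genes), with a median of 0.03 against -0.0024 over all genes. The scaling moved these genes and all genes alike: the median of the 76 less the median of all genes was 0.035 with TMM, 0.0349 with total counts and 0.035 with the DESeq2 size factors. With libraries left out this difference moved more. It was 0.0201 without normoxia 4 and 0.0603 without both normoxia 2 and hypoxia 4. The summed counts of the 80 genes took 0.909 ± 0.00597% (SD, n = 4) of all counts in hypoxia and 0.908 ± 0.0318% (SD, n = 4) in normoxia. Hypoxia libraries ran from 0.904% to 0.918% and lay inside the range of normoxia libraries, 0.880% to 0.937%.

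In the small subunit, 24 of 31 genes had a positive log2 fold change, with a median of 0.03. Rps20, whose protein sits in the head of the small subunit, had 83.9, 86.0, 88.3 and 86.9 CPM in hypoxia and 78.6, 81.4, 71.6 and 79.6 CPM in normoxia. Every hypoxia library lay above every normoxia library, and the log2 fold change was 0.15 ± 0.05 (SE; unadjusted p = 0.014, edgeR adjusted p = 0.144). Rps20 spans chr4:3831334-3835665 on the minus strand, and 6.55% of its transcript was shared with other transcripts in stretches of 75 bases.

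Rps15a, a small subunit gene with a pyrimidine run near its annotated start, had 194, 188, 195 and 181 CPM in hypoxia and 171, 158, 181 and 176 CPM in normoxia. The lowest hypoxia library equalled the highest normoxia library to this precision, and the groups overlapped slightly. The log2 fold change was 0.14 ± 0.05 (SE; unadjusted p = 0.0222, edgeR adjusted p = 0.177).

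Rps6 encodes S6, the protein phosphorylated by the S6 kinases downstream of mTOR. It had 176, 186, 168 and 169 CPM in hypoxia and 169, 161, 172 and 158 CPM in normoxia, and the groups overlapped. Its log2 fold change was 0.08 (edgeR adjusted p = 0.409), with 84.1% of its transcript shared with other transcripts. Rps27a, made as a fusion to ubiquitin, had 129 to 141 CPM in hypoxia and 125 to 134 CPM in normoxia, a log2 fold change of 0.08 (edgeR adjusted p = 0.401). Rps27a overlaps Clhc1 on the opposite strand. The strand setting of the counting is not given in the sources used here, so reads of such partners may be mixed. This applies to 18 of the 80 genes.

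Rpsa, which encodes a protein of the small subunit also known as the laminin receptor, had 298, 241, 305 and 285 CPM in hypoxia and 288, 300, 291 and 281 CPM in normoxia. Hypoxia 2 was the lowest of the 8 libraries and hypoxia 3 the highest. The log2 fold change was -0.04 (edgeR adjusted p = 0.817). Rps4x, the X-linked gene for S4, had 183 to 190 CPM in hypoxia and 177 to 189 CPM in normoxia, with a log2 fold change of 0.03 (edgeR adjusted p = 0.773).

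In the large subunit, 30 of 45 genes had a positive log2 fold change, with a median of 0.02. Rpl4, which encodes a protein that lines the exit tunnel, had 437, 448, 437 and 437 CPM in hypoxia and 417, 429, 406 and 409 CPM in normoxia. Its groups did not overlap, and the log2 fold change was 0.08 ± 0.04 (SE; unadjusted p = 0.0562, edgeR adjusted p = 0.271). Rps20 and Rpl4 were the only 2 of the 76 genes without overlap, both with hypoxia above, where 13.4% of all genes tested had no overlap (5.69% with hypoxia above and 7.75% with hypoxia below).

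Rpl10a, whose protein belongs to the L1 stalk, had 112, 110, 119 and 113 CPM in hypoxia and 96.9, 111, 108 and 105 CPM in normoxia. Only normoxia 2 reached the range of hypoxia, and the log2 fold change was 0.11 ± 0.05 (SE; edgeR adjusted p = 0.265). Rpl10, which encodes a late-joining protein of the large subunit, had 129, 123, 133 and 134 CPM in hypoxia and 120, 122, 126 and 117 CPM in normoxia, a log2 fold change of 0.10 (edgeR adjusted p = 0.280). Copies of these 2 genes are close: 87.6% of the Rpl10a transcript and 91.9% of the Rpl10 transcript were shared with other transcripts.

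Rpl11, which encodes a protein that binds MDM2 when ribosome assembly fails, had 144 to 149 CPM in hypoxia and 130 to 145 CPM in normoxia. Its log2 fold change was 0.08 (edgeR adjusted p = 0.339). Rpl9 had 195 to 213 CPM in hypoxia and 179 to 205 CPM in normoxia, and Rpl6 had 210 to 215 CPM in hypoxia and 186 to 210 CPM in normoxia. Their log2 fold changes were 0.10 (edgeR adjusted p = 0.351) and 0.08 (edgeR adjusted p = 0.392). Rpl41, which encodes the smallest ribosomal protein, had 164, 172, 126 and 160 CPM in hypoxia and 170, 183, 174 and 163 CPM in normoxia. The low value of hypoxia 3 set it apart, and its log2 fold change was -0.15 ± 0.09 (SE; edgeR adjusted p = 0.397).

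The acidic stalk proteins P0, P1 and P2 recruit the translation factors to the large subunit. Rplp0 had 152, 152, 155 and 156 CPM in hypoxia and 162, 171, 157 and 146 CPM in normoxia. The hypoxia libraries all lay within the normoxia range, and the log2 fold change was -0.05 (edgeR adjusted p = 0.673). Rplp1 had 253, 258, 255 and 257 CPM in hypoxia and 239, 282, 258 and 238 CPM in normoxia, a log2 fold change of 0.01 (edgeR adjusted p = 0.943). Rplp2 had 88.3, 84.7, 86.1 and 91.4 CPM in hypoxia and 78.1, 98.1, 86.1 and 78.3 CPM in normoxia, a log2 fold change of 0.04 (edgeR adjusted p = 0.797). For all 3 stalk genes normoxia 2 was the highest library.

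The genes whose symbols end in l are relatives of a parent ribosomal protein gene, and several are known for expression restricted to a few tissues. Rpl10l, the testis copy of Rpl10, had 0 counts in every library, which allows up to 3 counts per library by counting error alone. Rpl39l, also known from testis, had 1, 0, 4 and 3 counts in hypoxia and 2, 0, 3 and 1 counts in normoxia. Its parent Rpl39 had 35.3 to 40.4 CPM in hypoxia and 33.5 to 43.1 CPM in normoxia, a log2 fold change of 0.02 (edgeR adjusted p = 0.903).

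Rpl3l, the striated muscle relative of Rpl3, had 7, 8, 12 and 13 counts in hypoxia and 5, 9, 6 and 15 counts in normoxia, and did not pass the filter. Rpl3 had 415, 389, 371 and 408 CPM in hypoxia and 393, 410, 448 and 403 CPM in normoxia, a log2 fold change of -0.06 (edgeR adjusted p = 0.582). Rps27l, a p53 target in human and mouse cells, was the only relative of this kind that passed the filter. It had 7.83, 6.77, 7.20 and 6.74 CPM in hypoxia and 7.99, 5.48, 6.32 and 6.13 CPM in normoxia, with overlapping groups and a log2 fold change of 0.14 ± 0.13 (SE; edgeR adjusted p = 0.606). Its parent Rps27 had 85.4, 95.1, 88.7 and 89.3 CPM in hypoxia and 82.8, 94.5, 88.6 and 85.2 CPM in normoxia, a log2 fold change of 0.03 (edgeR adjusted p = 0.803).

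Levels can be compared between genes only per transcript length. On a scale of CPM per kilobase of the principal transcript, the 76 genes had a median of 149.6, with quartiles at 102 and 196. The middle of the range was narrow, with 1.92 times between the quartiles, and the whole range from lowest to highest was 136-fold. The highest were Rplp1 at 513 ± 4.11 in hypoxia and 509 ± 40.8 in normoxia, Rps29 at 430 ± 14.3 in hypoxia and 438 ± 26.7 in normoxia, and Rpl41 at 356 ± 46.6 in hypoxia and 395 ± 18.8 in normoxia (CPM per kilobase; SD over 4 libraries). Rps15 stood at 380 ± 5.29 in hypoxia and 370 ± 5.57 in normoxia and Rpl8 at 310 ± 6.65 in hypoxia and 298 ± 13.2 in normoxia. Rpl41 was below Rps15 in hypoxia and above it in normoxia, a difference in order that was not tested.

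**Figure D2:**
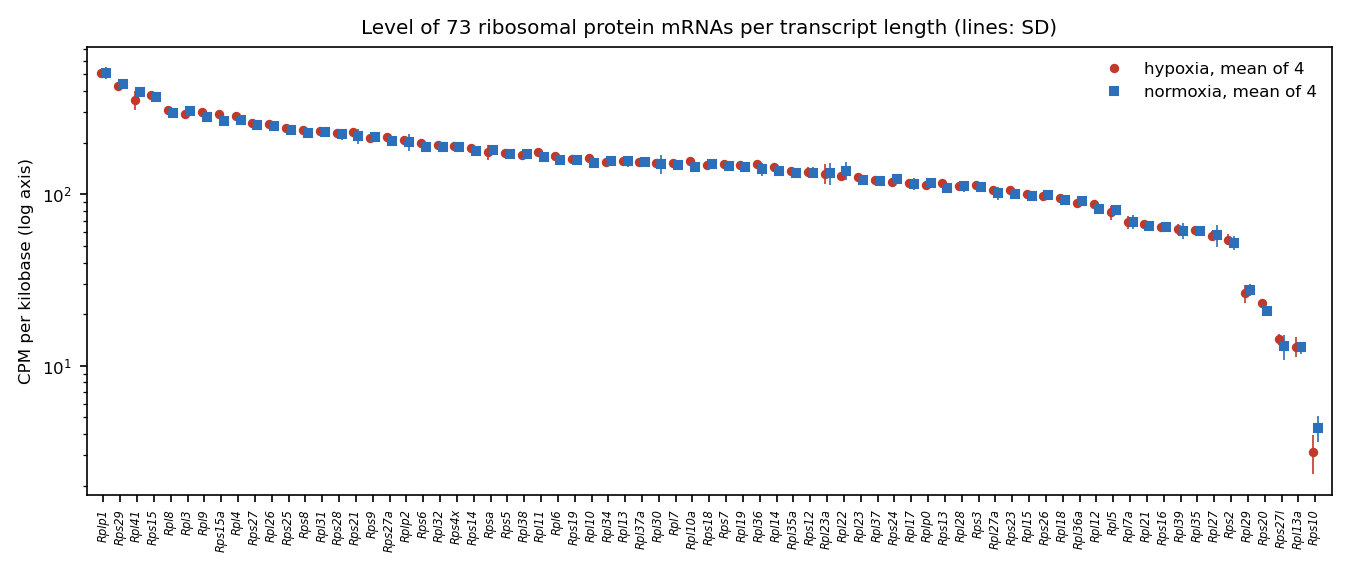
CPM per kilobase of the principal transcript (log axis) for 73 of the 76 genes that passed the filter, in order of their mean level, with circles for the mean of 4 hypoxia libraries, squares for the mean of 4 normoxia libraries and lines for the SD. Rpl29, Rps20, Rps27l, Rpl13a and Rps10 lie lowest, and the other genes lie between 52.3 and 513 CPM per kilobase.

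The lowest of the 76 were Rps10, Rpl13a, Rps27l, Rps20 and Rpl29. Rps20 may be placed too low here, since the principal transcript used for its length is 3706 bases long while the other 75 are at most 2045. Rpl29 had 26.4 ± 3.32 CPM per kilobase in hypoxia and 27.7 ± 2.16 in normoxia (SD over 4 libraries), and its log2 fold change was -0.07 (edgeR adjusted p = 0.762). Its transcript shares stretches of 75 bases with 42 annotated pseudogenes.

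Rps10, Rpl13a and Rpl24 encode general ribosomal proteins, and the counts of these genes were among the lowest of the 80. Rps10 (chr17:27630418-27636669, minus strand) had 29, 20, 39 and 38 counts in hypoxia and 50, 49, 34 and 39 counts in normoxia. Its log2 fold change was -0.47 ± 0.22 (SE; unadjusted p = 0.0643, edgeR adjusted p = 0.288), with overlapping groups. Its level of 3.14 ± 0.810 CPM per kilobase in hypoxia and 4.36 ± 0.759 in normoxia was the lowest of those tested.

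Exons of Rps10 overlap RPS10-NUDT3, a read-through gene annotated on the same strand, whose row held 0 counts in all 8 libraries. The pseudogene Rps10-ps1 had 204 to 247 counts in hypoxia and 178 to 229 counts in normoxia, more than Rps10 itself in every library. In all, 90.1% of the Rps10 transcript was shared with other transcripts.

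Rpl24 (chr16:55966275-55971435, plus strand) had 5, 10, 10 and 8 counts in hypoxia and 4, 1, 6 and 12 counts in normoxia, and did not pass the filter. Its exons overlap Gm28037 on the same strand, which had 0 counts throughout, and its pseudogene Gm12254 had 74 to 108 counts in hypoxia and 86 to 106 counts in normoxia. Rpl13a (chr7:45125558-45128761, minus strand) had 262, 287, 239 and 295 counts in hypoxia and 272, 266, 252 and 268 counts in normoxia, or 13.0 ± 1.67 CPM per kilobase in hypoxia and 12.8 ± 1.04 in normoxia (SD over 4 libraries). It shares exons with Gm45713, a further row with 0 counts, and its log2 fold change was 0.02 (edgeR adjusted p = 0.944). Whether reads in such shared exons were set aside was not tested, and the counts of these 3 genes are uncertain as levels.

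Genes with much and with little shared sequence had overlapping levels. The median share of 75-base windows that a gene's principal transcript had in common with transcripts of other genes was 50.1% over the 80 genes. The 12 tested genes above 80% had 3.75 to 299 CPM per kilobase with a median of 142. The 9 tested genes below 10% had 22.1 to 304 with a median of 173. Rps27, at 98.5% shared, still had 260 ± 11.8 CPM per kilobase in hypoxia and 254 ± 14.7 in normoxia (SD over 4 libraries).

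**Figure D3:**
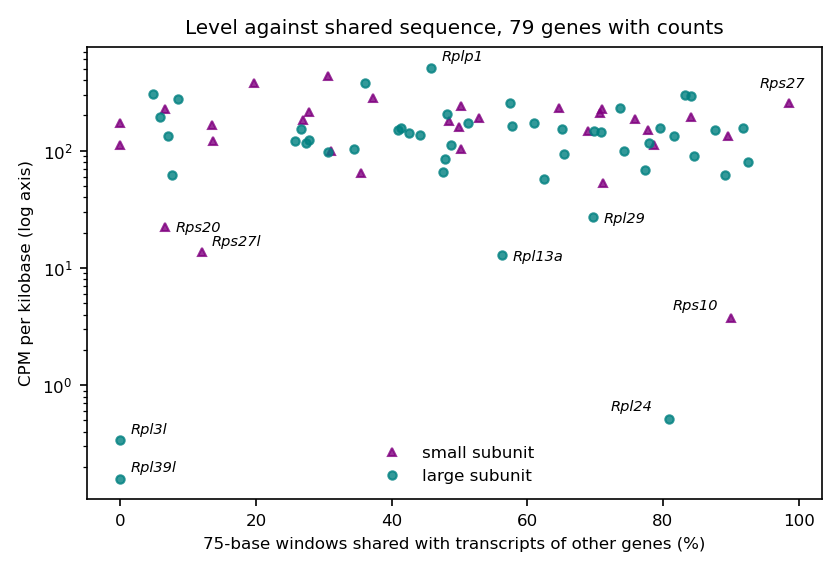
Mean level in CPM per kilobase (log axis) against the percentage of 75-base windows shared with transcripts of other genes, for the 79 genes with counts, triangles for the small subunit and circles for the large subunit. Tested genes above 80% run from Rps10 at 3.75 to 299 CPM per kilobase, and Rpl24, which was not tested, lies lower.

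Most of the genes varied little between mice. The median coefficient of variation over the 76 genes was 3.46% in hypoxia and 5.75% in normoxia. Over the 6951 tested genes that averaged 30 CPM or more, as 72 of these genes did, it was 4.38% in hypoxia and 7.01% in normoxia. The median log2 deviation of the 76 genes from their own mean over 8 libraries was 0.02, 0.05, 0.03 and 0.01 in hypoxia 1 to 4, and -0.04, 0.07, 0.00 and -0.08 in normoxia 1 to 4.

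**Figure D4:**
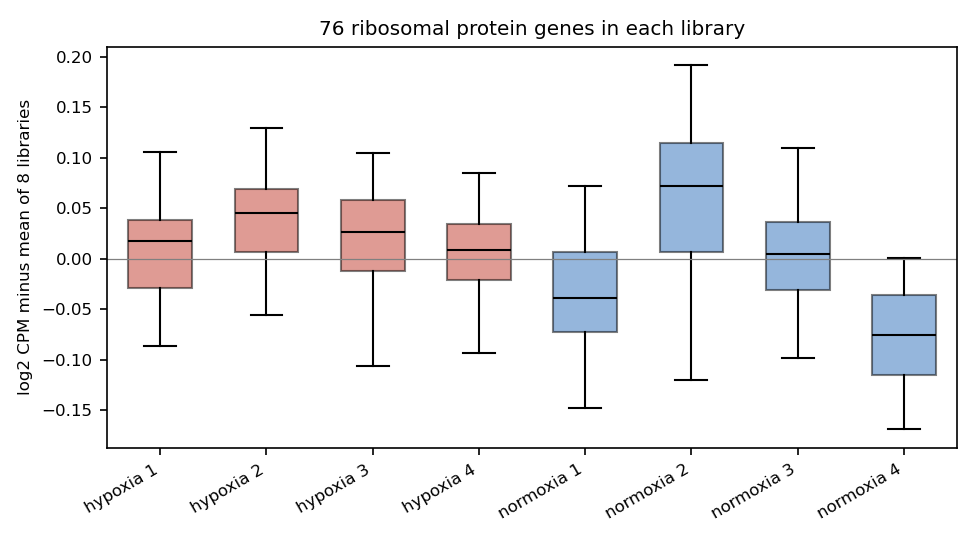
Log2 CPM minus each gene's mean over the 8 libraries, for 76 genes per library, with boxes from the lower to the upper quartile, a line at the median and whiskers from the 5th to the 95th percentile. The hypoxia medians lie between 0.01 and 0.05, inside the range of the normoxia medians, -0.08 in normoxia 4 to 0.07 in normoxia 2.

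Normoxia 2 was the highest of the 8 libraries for 34 of the 76 genes, and normoxia 4 was the lowest for 34 (44.7%). Hypoxia 2 was the highest for 19 and normoxia 1 the lowest for 16. The same was not counted over all genes tested, so these numbers are not shown to be particular to ribosomal protein genes. Normoxia 2 is also the library with 897 CPM of cortex and hippocampus markers. Hypoxia 2 and normoxia 1 are those with the highest sums of oligodendrocyte markers, 9868 CPM in hypoxia 2 and 11503 CPM in normoxia 1. Normoxia 4 has the highest sum of choroid plexus markers, 62.8 CPM, against 26.1 to 46.4 CPM in the other libraries. The part of these cell types in the ribosomal protein levels was not tested. Without normoxia 2, 64 of 77 genes (83.1%) had a positive log2 fold change, with a median of 0.06. Over all genes in that fit 50.7% were positive, with a median of 0.0028. The lowest adjusted p among the ribosomal protein genes was then 0.0675, for Rps20, and that of Rpl12 was 0.099 (edgeR). Over all alternatives tried, the adjusted p of Rps20 ran from 0.0675 to 0.345, the highest without hypoxia 3.

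Rpl12 had 106 to 111 CPM in hypoxia and 99.6, 112, 102 and 96.8 CPM in normoxia, with normoxia 2 the highest of the 8 libraries. Over all 8 libraries its log2 fold change was 0.08 (edgeR adjusted p = 0.436).

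A few genes departed from the rest in some libraries. With limits set after the values were seen, 10 genes had a library under 0.85 or over 1.2 times their median over the 8 libraries, among them Rpl22, Rpl23a, Rpl27, Rpl29, Rpl41, Rpl5, Rps10, Rps27l and Rpsa. Rpl23a had 77.5, 59.2, 80.9 and 77.5 CPM in hypoxia and 78.9, 82.6, 58.0 and 78.3 CPM in normoxia, low in hypoxia 2 and normoxia 3. Its pseudogene Gm3362 had 222, 95, 209 and 219 counts in hypoxia and 205, 252, 11 and 225 counts in normoxia, low in the same 2 libraries. The pseudogene Rpl23a-ps3 had 416 to 473 counts in hypoxia and 390 to 514 counts in normoxia and did not share this pattern.

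Rpl41 was low in hypoxia 3 alone, where its pseudogene Gm3699 had 6 counts, against 74 to 89 in the other hypoxia libraries and 68 to 87 in normoxia. Rpl5, whose protein carries the ribosomal 5S RNA into the large subunit, had 165, 169, 170 and 137 CPM in hypoxia and 161, 181, 157 and 168 CPM in normoxia. In hypoxia 4, its low library, Rpl5-ps1 had 8 counts, against 27 to 38 in the other hypoxia libraries and 24 to 47 in normoxia. Gm15500, another Rpl5 copy, went the other way and had 114 counts in hypoxia 4, against 30 to 35 in the other hypoxia libraries and 26 to 58 in normoxia.

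For Rpsa, low in hypoxia 2, the pseudogene Rpsa-ps9 had 145 counts there and 115 in hypoxia 4, against 435 and 460 in hypoxia 1 and 3 and 386 to 485 in normoxia. Another copy, Rpsa-ps10, had 87, 88, 101 and 101 counts in hypoxia and 100, 104, 74 and 116 counts in normoxia and did not share this pattern. The part of these copies in the counts of the genes was not tested.

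**Figure D5:**
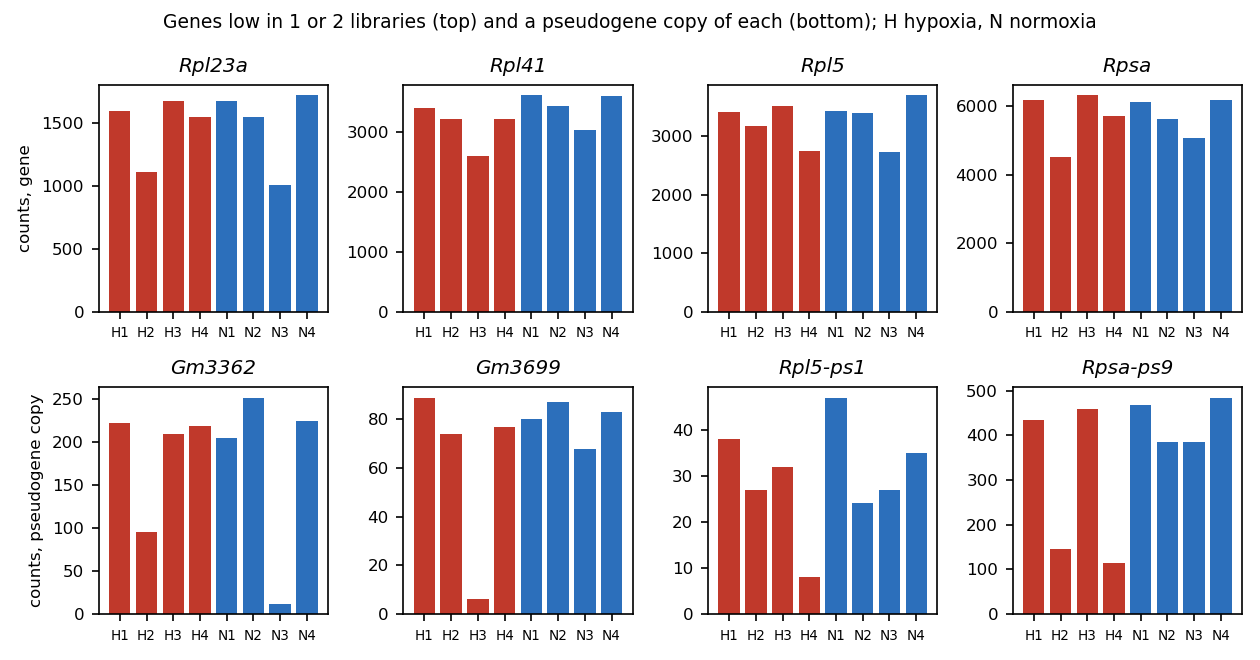
Raw counts in each library (H hypoxia, N normoxia) of 4 genes that were low in 1 or 2 libraries (top) and of a pseudogene copy of each (bottom), with 1 bar per library. Gm3362 is low in hypoxia 2 and normoxia 3 as Rpl23a is, and Gm3699 falls to 6 counts in hypoxia 3, where Rpl41 is lowest.

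Jumps of this size were counted over copies and over other rows. Among pseudogene rows that share 75-base windows with a ribosomal protein gene, 55 had a mean of 20 to 500 counts, and in 10 of these (18.2%) the highest library was over 4 times the lowest in CPM. Of the other rows in the same range of counts, 331 of 7808 did (4.24%). The 10 include Gm3362, Gm3699, Rpl5-ps1 and Gm15500, whose jumps are described above, so the share is not independent of them. Rpsa-ps9 fell short of the limit. The rows were matched by this wide range of counts alone, and the difference in share was not tested. Pseudogenes named after ribosomal proteins took few counts in all. Of 301 such rows, 135 held 0 counts in every library, and together they held 4027 to 4943 counts per library, or 2.20% to 2.64% of the counts of the 80 genes. Copies with other names, such as Gm3362 and Gm12254, are not in this sum. In all, 674 pseudogene rows share 75-base windows with a ribosomal protein gene, and their counts were not summed.

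The summed mRNA of the large subunit genes was compared with that of the small subunit genes. This ratio of sums is not scaled by length and does not measure the subunits themselves. How steady such a ratio is for other sets of genes was not tested. Summed CPM of the large subunit over that of the small subunit was 1.449, 1.431, 1.442 and 1.446 in hypoxia, with a mean of 1.44 ± 0.00756, and 1.455, 1.464, 1.449 and 1.452 in normoxia, with a mean of 1.46 ± 0.00655 (SD over 4 libraries). The groups did not overlap, by a margin in the fourth digit (1.4486 in hypoxia 1 against 1.4494 in normoxia 3). Without the 10 genes that depart in a library they overlapped, at 1.353 to 1.399 in hypoxia and 1.386 to 1.393 in normoxia. Hypoxia 2 alone lay below the normoxia range, with hypoxia 1, 3 and 4 at 1.399, 1.395 and 1.391. The SD of the hypoxia libraries was then 0.0212.

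Ribosomal proteins with names outside the rule did not pass the test either. Of 8 such genes, 7 were tested, none was called and 3 had a positive log2 fold change. Over all genes tested 2.15% were called and 48.2% were positive. Rpl22l1, the relative of Rpl22, had 49.3, 48.7, 48.5 and 46.3 CPM in hypoxia and 41.1, 42.2, 47.7 and 41.6 CPM in normoxia, a log2 fold change of 0.16 ± 0.06 (SE; edgeR adjusted p = 0.177). Rpl22 itself had 60.9, 62.1, 58.0 and 59.8 CPM in hypoxia and 68.7, 74.1, 60.2 and 57.2 CPM in normoxia, a log2 fold change of -0.11 ± 0.08 (SE; edgeR adjusted p = 0.478). The groups of each gene overlapped. Rpl7l1, named after its values were seen, had 37.5, 39.0, 34.2 and 41.4 CPM in hypoxia and 44.1, 41.6, 43.5 and 41.5 CPM in normoxia. All 4 hypoxia libraries lay below the normoxia libraries, by a narrow margin, and the log2 fold change was -0.17 ± 0.06 (SE; unadjusted p = 0.0294, edgeR adjusted p = 0.203). Rps3a1 and Fau had log2 fold changes of 0.03 and -0.02 (edgeR adjusted p = 0.703 and 0.884), and Rack1, which encodes a scaffold protein on the small subunit, had one of -0.06 (edgeR adjusted p = 0.526).

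Other genes of translation, and the further lists below, were read from the same fit. Over all genes tested 2.15% were called and 48.2% had a positive log2 fold change. At that share a list this short holds few calls or none. Of 16 further genes with a TOP start, such as elongation factors, none was called and 13 had a positive log2 fold change, with a median of 0.06. The smallest p among them was that of Naca, a subunit of the complex that binds nascent chains at the ribosome. Naca had 158, 158, 151 and 152 CPM in hypoxia and 140, 122, 140 and 138 CPM in normoxia, without overlap, a log2 fold change of 0.20 ± 0.06 (SE; edgeR adjusted p = 0.0966). DESeq2 called it (adjusted p = 0.0293), and its adjusted p ran up to 0.246 over the alternatives.

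Of 33 translation initiation factors none was called and 22 had a positive log2 fold change, with a median of 0.03. Eif5, which triggers GTP hydrolysis at the start codon, had 282, 281, 285 and 261 CPM in hypoxia and 252, 230, 236 and 244 CPM in normoxia, without overlap, a log2 fold change of 0.21 ± 0.05 (SE; edgeR adjusted p = 0.0606). It was called with DESeq2 (adjusted p = 0.00409), and with edgeR without hypoxia 4 (adjusted p = 0.0386), without normoxia 2 (0.0476) and without both (0.0196), and its adjusted p ran up to 0.200 over the alternatives. Of 38 genes of ribosome biogenesis none was called and 18 had a positive log2 fold change, with a median of -0.01. Bysl, needed for assembly of the small subunit, had 16.9, 17.9, 17.7 and 19.9 CPM in hypoxia and 22.3, 22.3, 21.0 and 19.9 CPM in normoxia, a log2 fold change of -0.24 ± 0.07 (SE; edgeR adjusted p = 0.117).

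Among 24 genes of the mTOR pathway and the ribosomal S6 kinases, 1 was higher and 2 were lower in hypoxia, where 0.915% of all genes tested were higher and 1.23% lower. The median log2 fold change was 0.01, and 13 were positive. Ddit4, an inhibitor of mTOR complex 1 that responds to low oxygen, rose to 135, 149, 133 and 71.4 CPM in hypoxia, against 31.0, 55.4, 36.6 and 32.8 CPM in normoxia. The groups did not overlap, and its log2 fold change was 1.65 ± 0.25 (SE; edgeR adjusted p = 0.021).

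Ddit4l, a relative of Ddit4, fell to 2.18, 3.57, 2.61 and 3.59 CPM in hypoxia, against 6.11, 5.26, 5.11 and 4.90 CPM in normoxia, a log2 fold change of -0.84 ± 0.18 (SE; edgeR adjusted p = 0.0483). Eif4ebp2, a brain-enriched repressor of cap-dependent translation that mTOR inactivates, fell to 69.5, 67.6, 66.5 and 81.0 CPM in hypoxia, against 89.2, 98.5, 90.0 and 85.5 CPM in normoxia. Its log2 fold change was -0.35 ± 0.07 (SE; edgeR adjusted p = 0.045), and the groups of both genes did not overlap. The calls of Ddit4, Ddit4l and Eif4ebp2 were each lost when hypoxia 1, 2 or 3 or normoxia 1, 3 or 4 was left out. All were also lost at a threshold of 0.01, and that of Ddit4l with the replicate block. Of 21 alternatives, Ddit4 lost its call in 7, Ddit4l in 8 and Eif4ebp2 in 8. Their edgeR adjusted p-values reached 0.0886, 0.170 and 0.165 over all alternatives, while the direction stayed the same in each.

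Mitochondrial ribosomal proteins, which are coded in the nucleus and serve another ribosome, had 1 of 77 tested genes lower and none higher. This is near the share over all genes tested, 1.23% lower and 0.915% higher. Their median log2 fold change was -0.03, and 32 were positive, against 48.2% of all genes tested. Mrpl36 fell to 14.4, 13.4, 13.0 and 13.6 CPM in hypoxia, against 18.8, 17.1, 16.3 and 16.8 CPM in normoxia, a log2 fold change of -0.34 ± 0.07 (SE; edgeR adjusted p = 0.046). Its groups did not overlap. Its call was lost in 10 of 21 alternatives, among them when any library except normoxia 2 was left out, with an adjusted p of up to 0.167. Of 78 respiratory chain and ATP synthase subunits coded in the nucleus none was called and 37 had a positive log2 fold change, with a median of -0.0049. Ndufb2 had the smallest p of these, with 32.4, 35.7, 32.1 and 36.3 CPM in hypoxia and 37.6, 41.0, 38.0 and 37.6 CPM in normoxia, a log2 fold change of -0.17 ± 0.06 (SE; edgeR adjusted p = 0.167).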

How the data were processed

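Polyadenylated RNA was sequenced from 8 hypothalamus samples, and the authors deposited raw counts of reads for each gene in each library. Per the submitters' processing notes, build mm10 was used with featureCounts, HISAT2 2.0.4, HISAT, Trimmomatic, SAMtools and DESeq2. How featureCounts treated strand and reads with several matches, and with which annotation release, is not given in the sources used here. Per the labels' protocols, the kit was TruSeq Stranded mRNA. The precision of each value is limited by library totals of 16994473 to 21694383 counts and by 4 libraries per group.

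The test was the quasi-likelihood F test of edgeR 4.0.16 (R 4.3.3), with group as its single term, TMM scaling and the 17047 genes left by filterByExpr (minimum count 10, minimum total 15). A gene was called at a Benjamini-Hochberg adjusted p under 0.05. The fit was tested on simulated data. An SE is the size of the log2 fold change divided by the square root of F, and a 95% interval uses the total degrees of freedom of the fit. Alternatives used DESeq2 1.42.0, limma-voom (limma 3.58.1), a replicate block, robust estimation, libraries left out, and other thresholds, filters and scalings. Replicate numbers are not stated to mark a shared day or litter, so the samples were not treated as pairs. Correlations of same-numbered deviations were 0.04, -0.11, 0.04 and -0.03, which does not exclude a pairing.

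Symbols, exons and transcripts came from GENCODE M21 on GRCm38, matched for 55227 of 55487 genes. CPM per kilobase uses the principal transcript (best APPRIS rank in the basic set, then the shortest). Shared sequence is the percentage of its 75-base windows found in transcripts of other genes in either orientation.

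The ribosomal protein genes and the other lists were chosen with earlier results of these data known. Named are the 6 smallest p-values in each subunit, the 5 highest and 5 lowest levels per kilobase, genes with symbols ending in l and their parents, Rpsa, the stalk genes, Rps6, Rps27a, genes not tested, and of each other list its 4 called genes with the smallest p or, with none called, the smallest p. Further genes, such as those that depart in a library, were named after their values were seen. Protein sequences were not used here. Some genes are not reported here by name, though they are included in the counts.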

Additional observations from a re-analysis of the deposited data

Results flagged for a closer look

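Each group of 4 libraries was searched for 1 library far from the others, over the genes named above that passed the filter, 98 groups of 4 in all. In this search, 7 groups stood out in this way. Chance alone picks about 1 group in 20 among genes chosen without sight of their values. Some genes here, Rpl23a and Rpl5 among them, were named because a library departed, so that rate does not hold for this search. Among the ribosomal protein genes, Rpl23a had 59.2 CPM in hypoxia 2, against 77.5 to 80.9 CPM in the other hypoxia libraries. Rpl5 had 137 CPM in hypoxia 4, against 165 to 170 CPM in the others. Rpl4 had 448 CPM in hypoxia 2, where the others lay very close together at 437 CPM. Outside the rule, Fau had 71.1 CPM in hypoxia 3, against 76.3 to 77.4 CPM in the other hypoxia libraries, and Rpl22l1 had 47.7 CPM in normoxia 3, against 41.1 to 42.2 CPM in the other normoxia libraries. In normoxia 2, Naca had 122 CPM, against 137.9 to 140.4 CPM in the other normoxia libraries, and Ndufb2 had 41.0 CPM, against 37.6 to 38.0 CPM.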

How the results depend on the processing

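No ribosomal protein gene was called in any of the 21 alternatives, which covered scaling, tool, filter, threshold, spread, replicate block and libraries left out. The lowest adjusted p among them was 0.0675 (Rps20 without normoxia 2). For the 32 named or departing genes that were tested, 33 of 672 alternative values had the opposite sign, in 11 genes, none of them called. The median log2 fold change of the ribosomal protein genes was 0.03 in the main fit. It ran from 0.00 with total counts alone to 0.06 without both normoxia 2 and hypoxia 4. The pooled SD within groups of the median log2 deviation of each library was 0.0463. That is the spread of single libraries, not the error of a difference between groups. With total counts alone the median over all genes was -0.03, and the ribosomal protein genes lay 0.0349 above it, against 0.035 with TMM. The number of genes called over the whole table, 366, moved far more: DESeq2 called 1008, a threshold of 0.1 gave 1058 and of 0.01 gave 26, and the fit without both normoxia 2 and hypoxia 4 called 1195. The replicate block left 21 calls, 0 of them ribosomal protein genes. Leaving out 1 library gave 26 to 693 calls, the highest without hypoxia 4 (693) and normoxia 2 (675), and 34 or fewer without hypoxia 1, 2 or 3. With total counts alone, 146 genes were higher and 342 lower, against 156 and 210. The difference in the large over small subunit ratio, -0.0135, was -0.0049 without the genes that depart in a library, an alternative added after seeing the data. The smaller value rests on hypoxia 2, at 1.353. The other hypoxia libraries lay at 1.391 to 1.399, against 1.386 to 1.393 in normoxia. The cause of these differences was not tested. Rpl24, Rpl3l, Rpl39l and Rpl10l did not pass the filter on low counts, so the main fit did not test them. Without the filter 79 ribosomal protein genes were fitted and none was called. The log2 fold change was 0.52 for Rpl24 and 0.36 for Rpl39l. That of Rpl3l ran from -0.03 to 0.33 over the settings in which it was fitted. Rpl10l held 0 counts in every library. At such low counts small changes in these genes were not detectable.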
